A study of Mus musculus with 8 samples.

Results

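The Cyp4 fatty acid omega-hydroxylases of the liver are described here through 10 genes, Cyp4a10, Cyp4a12a, Cyp4a12b, Cyp4a14, Cyp4a31, Cyp4a32, Cyp4f13, Cyp4f14, Cyp4f15 and Cyp4v3. They were chosen by name, and every probe that carried 1 of these names was taken, which gave 14 of the 55681 probes on the array (10 of 34836 gene names). Liver RNA came from 4 male NZO mice (strain NZO/HiBomDife, obese and susceptible to diabetes) and 4 male B6 mice (C57BL/6, lean), with 1 single-colour Agilent array per mouse. All mice were 6 weeks old and all were fed a diet with 45% fat, so there was no group on another diet, and no allele was introduced into either strain. Mice are named by strain and the number in their labels. A level is the log2 of the processed signal relative to the 75th percentile of the same array, and probes differ in how they bind, so levels are compared between mice for the same probe and not between probes.

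The 75th percentile of the signal ranged from 119 to 142 on the NZO arrays and from 136 to 159 on the B6 arrays. Between 50.4% and 60.1% of the 59305 spots that were not controls exceeded the background clearly on each array, and no spot was saturated (0 on every array). Each of the 14 Cyp4 probes was detected above background in every mouse. The tissue label was borne out by the hepatocyte markers Alb, Ttr, Apoa1, Cps1 and Tat, of which 5 of 5 were above background on all arrays and 0 were called between the strains.

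Cytochrome P450 enzymes of family 4 sit in the endoplasmic reticulum and place a hydroxyl group on the last carbon of a fatty acid, the omega carbon. The alcohol is oxidised further to a dicarboxylic acid, which peroxisomes shorten. In rodent liver the Cyp4a genes are textbook targets of PPAR alpha, the nuclear receptor that senses fatty acids, while Cyp4a12a is also known for its higher expression in males and for hydroxylating arachidonic acid. The Cyp4f enzymes act on leukotrienes and long fatty acids, and Cyp4v3 is the mouse counterpart of the human fatty acid hydroxylase gene CYP4V2.

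The Cyp4a genes lie side by side, and near-identical sequences among some of them bear on what a probe reports. In the RefSeq annotation of GRCm38, the order on chromosome 4 was Cyp4a12a (115299046 to 115332815), Cyp4a12b (115411624 to 115439034), Cyp4a14 (115486200 to 115496158), Cyp4a10 (115518287 to 115533649), Cyp4a31 (115563627 to 115579015) and Cyp4a32 (115600927 to 115622507). Cyp4f15, Cyp4f14 and Cyp4f13 lie on chromosome 17 between 32685631 and 32947415, and Cyp4v3 lies on chromosome 8 from 45305801 to 45333163. The files place the probes on the older build mm9, and no exon was assigned to them here. The probe pair below is the one of Cyp4a10 and Cyp4a31 that lines up over its full length and shows how little separates the transcripts, with the bases that differ in capitals.

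Cyp4a10 probe 3: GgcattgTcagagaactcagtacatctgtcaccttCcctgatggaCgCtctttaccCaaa
Cyp4a31 probe 2: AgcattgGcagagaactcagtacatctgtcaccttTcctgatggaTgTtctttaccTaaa

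These 60-base probes were identical at 54 bases and differed at 6. The first lies at chr4:115198463-115198522 and the second at chr4:115243923-115243982 on mm9, both on the plus strand. Cyp4a10 probe 1 and Cyp4a31 probe 1 also covered the same stretch of their transcripts, with 44 of 47 shared bases identical, and Cyp4a10 probe 2 shared 21 of 23 bases with Cyp4a31 probe 1. In the accessions given for the probes, Cyp4a10 probe 3 also carried Cyp4a32, Cyp4a31 probe 3 also carried Cyp4a10, and the Cyp4a12a probe also carried Cyp4a12b. How far each probe reads its neighbours was not tested, so the values of these genes are uncertain as values of single genes, and their probes are not independent of one another.

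The comparison of NZO with B6 liver asks which of these enzymes differ between the obese and the lean strain. Cyp4a14, Cyp4a12a and Cyp4a12b were expressed at higher levels in NZO, by 7.74-fold, 2.46-fold and 2.50-fold. None of the 14 probes was called lower. The other Cyp4a probes lay higher in NZO on average without passing the test, and the Cyp4f and Cyp4v3 probes differed by less than the fold threshold. A probe was called when limma gave a Benjamini-Hochberg adjusted p of 0.05 or less over all 27639 probes tested and a log2 fold change of 0.7 or more in either direction. By this rule 3 of 14 Cyp4 probes (21.4%) were called higher, beside 4.33% of all probes tested, and 0 of 14 were called lower, beside 5.28%. With the unadjusted p, 7 of 14 were higher, beside 5.16%. In whole tissue, fewer cells of a type and less RNA per cell cannot be told apart.

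**Figure D1:**
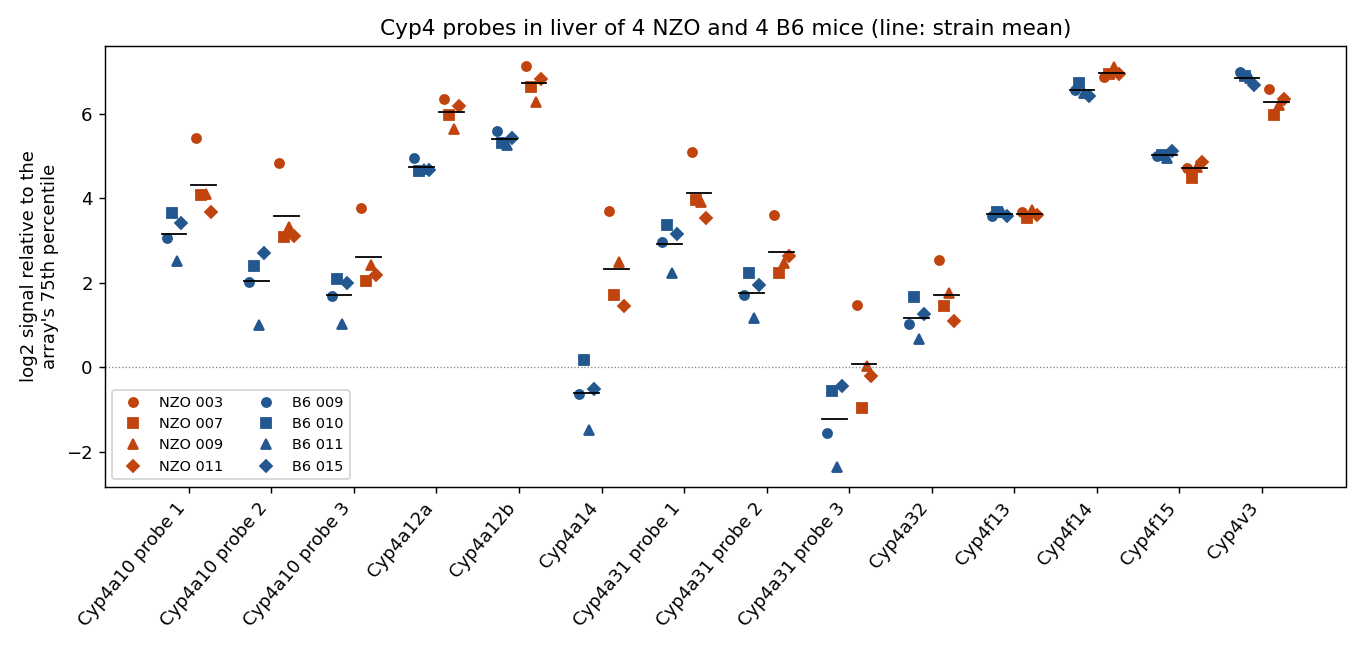
Level of each of the 14 Cyp4 probes (log2 signal relative to the 75th percentile of the array, vertical axis) in 4 NZO mice (orange) and 4 B6 mice (blue), with 1 symbol per mouse and a line at the strain mean. The strains do not overlap in 10 of the 14 probes, among them Cyp4a12a, Cyp4a12b and Cyp4a14. NZO 003 is the highest NZO mouse in all 10 Cyp4a probes, and levels are not comparable between probes.

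Cyp4a14 encodes an omega-hydroxylase of medium and long fatty acids that PPAR alpha agonists induce strongly. Its level was 3.70 in NZO 003, 1.71 in NZO 007, 2.48 in NZO 009 and 1.44 in NZO 011, against -0.63 in B6 009, 0.17 in B6 010, -1.48 in B6 011 and -0.52 in B6 015. Every NZO mouse was above every B6 mouse, although the mice of each strain were spread widely. The log2 fold change was 2.95 with a standard error of 0.53 (95% confidence interval 1.74 to 4.16, n = 4 per strain, limma adjusted p = 0.0068). It was the largest difference among the 14 probes, and it stayed past both thresholds when any single mouse was left out, at 2.50 without NZO 003 and 2.66 without B6 011 (limma adjusted p = 0.00936 and 0.021).

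Cyp4a12a encodes the arachidonic acid omega-hydroxylase of male mice, and Cyp4a12b is its close copy. For Cyp4a12a the NZO levels were 6.36, 5.97, 5.65 and 6.19 in mice 003, 007, 009 and 011, and the B6 levels were 4.96, 4.65, 4.69 and 4.68 in mice 009, 010, 011 and 015. For Cyp4a12b the NZO levels were 7.13, 6.64, 6.27 and 6.83 and the B6 levels were 5.60, 5.30, 5.26 and 5.42, in the same order of mice. The strains did not overlap in either gene, and the 2 probes ranked the NZO mice alike, with 003 highest and 009 lowest. The log2 fold changes were 1.30 with a standard error of 0.16 for Cyp4a12a and 1.32 with a standard error of 0.18 for Cyp4a12b (limma adjusted p = 0.00115 and 0.00193).

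The arrays came from 5 slides and 2 scan days, and only slide 1 and both scan days held mice of both strains. Within slide 1, where NZO 003 was the only NZO mouse beside B6 010 and B6 015, the log2 difference was 3.88 for Cyp4a14, 1.70 for Cyp4a12a and 1.77 for Cyp4a12b. Within scan day 1 these differences were 2.72, 1.40 and 1.38, and within scan day 2, where NZO 007 was the only NZO mouse, they were 2.77, 1.15 and 1.21. The 3 genes were higher in NZO in each of these comparisons, which are not separate, since slide 1 lies within scan day 1.

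**Figure D2:**
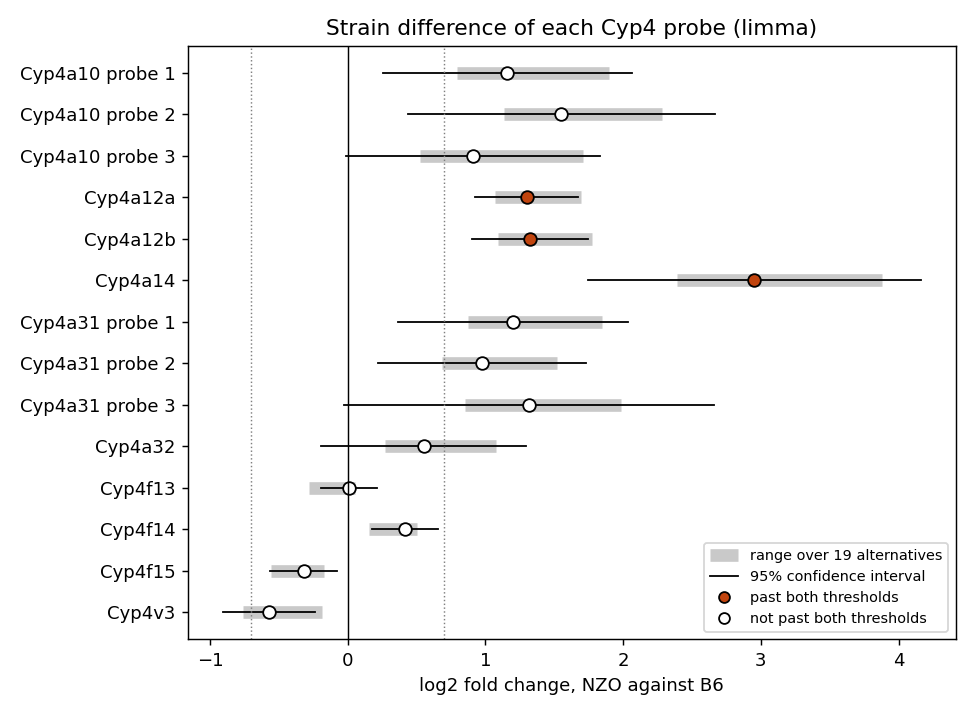
Log2 fold change of NZO against B6 for each Cyp4 probe (horizontal axis), with its 95% confidence interval (black line), the range of the value over 19 alternative settings (grey bar) and dotted lines at the fold threshold of 0.7. The filled points are the 3 probes past both thresholds, Cyp4a12a at 1.30, Cyp4a12b at 1.32 and Cyp4a14 at 2.95.

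Cyp4a10, the other strongly PPAR alpha-dependent member, had 3 probes. Probe 2 (chr4:115206150-115206209 on mm9) read 4.84, 3.09, 3.31 and 3.10 in NZO 003, 007, 009 and 011, against 2.02, 2.41, 1.00 and 2.70 in B6 009, 010, 011 and 015. All NZO mice were above all B6 mice, but NZO 003 stood far above the other NZO mice, and the log2 fold change of 1.55 with a standard error of 0.49 did not pass (limma adjusted p = 0.0726). It did pass under normexp and in the deposited table (1.43 and 1.31, limma adjusted p = 0.0409 and 0.032) and with slide as a random or fixed term (1.69 and 2.28, limma adjusted p = 0.0375 and 0.0196). Probe 1, which overlaps it, gave 1.16 with a standard error of 0.39, and probe 3 gave 0.91 with a standard error of 0.40 (limma adjusted p = 0.0944 and 0.187). Probe 1 passed with slide as a random or fixed term (1.30 and 1.89, limma adjusted p = 0.0479 and 0.0339), and probe 3 with slide as a fixed term (1.71, limma adjusted p = 0.0254). The fixed term rests on slide 1, where NZO 003 is the only NZO mouse. The strains overlapped in probe 3 only.

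Cyp4a31 and Cyp4a32 are close paralogs of Cyp4a10. Cyp4a31 probe 1 read 5.10, 3.96, 3.91 and 3.53 in the NZO mice and 2.96, 3.36, 2.24 and 3.14 in the B6 mice, without overlap. Its log2 fold change was 1.20 with a standard error of 0.36, and those of probes 2 and 3 were 0.97 and 1.31 with standard errors of 0.33 and 0.59 (limma adjusted p = 0.0657, 0.0935 and 0.189). None of the 3 passed at these adjusted p-values. With slide as a random block probe 1 passed (1.32, limma adjusted p = 0.0334), and with slide as a fixed term all 3 did (1.85, 1.52 and 1.98, limma adjusted p = 0.032, 0.0367 and 0.0209). Cyp4a32 read 2.54, 1.45, 1.75 and 1.11 in the NZO mice and 1.03, 1.67, 0.68 and 1.25 in the B6 mice, so the strains overlapped. Its difference of 0.55 had a 95% confidence interval from -0.20 to 1.30, which holds both no difference and a difference past the fold threshold.

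The probes of 1 gene were compared with each other to see whether they gave the same strain difference. The within-array difference of 2 probes was compared between the strains with a two-sided exact permutation test, whose smallest possible p with 4 against 4 arrays is 0.0286. The strain difference of Cyp4a10 probe 2 was 0.64 larger than that of probe 3 (exact p = 0.0286, 0.171 after adjustment over 6 pairs). The other 5 pairs within Cyp4a10 and Cyp4a31 differed by 0.12 to 0.39. A single pair at the smallest p cannot pass after adjustment over 6 pairs, so the test does not show whether the probes of a gene give the same difference.

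The 8 probes of Cyp4a10, Cyp4a14, Cyp4a31 and Cyp4a32 shared a pattern among mice of the same strain. NZO 003 was the highest NZO mouse in 8 of 8, where it was the highest in 35.5% of all probes tested, and B6 011 was the lowest B6 mouse in 8 of 8, where it was the lowest in 18.2%. B6 010 was the highest B6 mouse in 6 of the 8 and B6 015 in the other 2. NZO 003, B6 010 and B6 015 are the 3 arrays of slide 1, and each lay above its strain mean in 8 of 8 probes, so a pattern of these mice and one of the slide cannot be told apart. NZO 003 lay above its strain mean by 0.83 in Cyp4a32 to 1.39 in Cyp4a31 probe 3, and B6 011 lay below its own by as much as 1.12 in that probe. Probes of Cyp4a10 and Cyp4a31 share sequence, so the 8 probes do not count as 8 separate observations. The median standard deviation within a strain was 0.62 for the 10 Cyp4a probes, against 0.12 for the 4 Cyp4f and Cyp4v3 probes and 0.23 for all probes tested. Without NZO 003 the difference was 0.52 for Cyp4a10 probe 3, 0.85 for Cyp4a31 probe 3 and 0.27 for Cyp4a32, and all 8 remained positive.

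**Figure D3:**
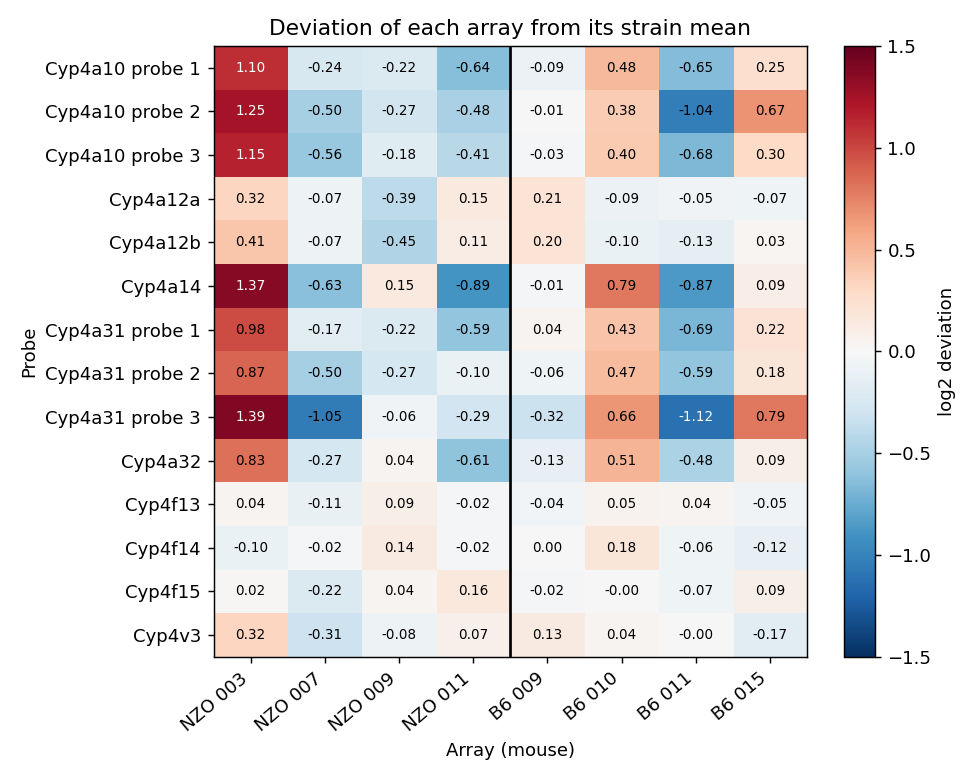
Deviation of each mouse from the mean of its strain on the log2 scale, in rows for the 14 Cyp4 probes and in columns for the 4 NZO and the 4 B6 mice, with red above and blue below the mean. NZO 003 is red in the rows of Cyp4a10, Cyp4a14, Cyp4a31 and Cyp4a32, from 0.83 to 1.39, B6 011 is blue in the same rows, and the Cyp4f rows are pale.

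The Cyp4f genes and Cyp4v3 had 1 probe each. The Cyp4f probes varied little between mice, with a larger standard deviation within a strain in 85.9% to 98.7% of all probes tested, and Cyp4v3 was near the middle (56.5%). Cyp4f14, a leukotriene and fatty acid hydroxylase, read 6.87, 6.95, 7.10 and 6.94 in the NZO mice and 6.55, 6.73, 6.49 and 6.43 in the B6 mice. The strains did not overlap, and the log2 fold change of 0.42 with a standard error of 0.10 passed the p threshold but not the fold threshold (limma adjusted p = 0.0318). Cyp4v3 read 6.60, 5.97, 6.20 and 6.35 in the NZO mice and 6.98, 6.89, 6.85 and 6.68 in the B6 mice. It too stood apart between the strains, in the other direction, at -0.57 with a standard error of 0.15 (limma adjusted p = 0.035). Both differences depended on the setting. Cyp4v3 passed both thresholds under quantile normalization and in the deposited table (-0.70 and -0.76), was -0.19 with slide as a fixed term (limma adjusted p = 0.618), and missed the p threshold in 6 of 8 fits without 1 mouse, those without NZO 007, NZO 009, NZO 011, B6 009, B6 010 or B6 011 (adjusted p = 0.0587 to 0.100). Cyp4f14 was 0.29 under quantile normalization and 0.15 in the deposited table (limma adjusted p = 0.172 and 0.526), and missed the p threshold in every fit without 1 mouse except those without NZO 003 or B6 010 (adjusted p = 0.0549 to 0.0866).

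Cyp4f15 had levels from 4.49 to 4.87 in NZO and from 4.96 to 5.12 in B6, a difference of -0.32 with a standard error of 0.11 (limma adjusted p = 0.088). Its unadjusted limma p was 0.0163. With the adjusted p it passed the p threshold only under normexp, quantile normalization and in the deposited table (-0.39, -0.42 and -0.56, limma adjusted p = 0.0153, 0.0248 and 0.0102) and with scan day as a fixed term (-0.36, limma adjusted p = 0.0494). With the mouse number as a block, which rests on mice 009 and 011 of each strain, it was -0.18 (limma adjusted p = 0.561). Cyp4f13 had levels from 3.53 to 3.72 in NZO and from 3.58 to 3.68 in B6. Its difference was 0.01, with a 95% confidence interval from -0.19 to 0.21 that leaves out the fold threshold in both directions. Over all 14 probes, 8 had every NZO mouse above every B6 mouse, beside 11.3% of all probes tested, and 2 had every NZO mouse below, beside 10.7%. The median log2 fold change was 1.25 over the 10 Cyp4a probes and -0.15 over the 4 Cyp4f and Cyp4v3 probes, beside 0.01 over all probes tested.

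Among the rest of the Cyp4 family, 1 probe of Cyp4f18 was called. Of 10 other Cyp4 genes on the array, 5 passed the filter on dim probes and 0 were called by their brightest probe, with a median of -0.06. Cyp4f18, a leukotriene hydroxylase of leukocytes, had a brightest probe at -0.81 with a standard error of 0.25 (limma adjusted p = 0.0684). Its other probe was called lower in NZO at -1.33 (standard error 0.31, limma adjusted p = 0.0236), and lost the call without NZO 009, B6 009, B6 011 or B6 015 (-1.37 to -1.21, adjusted p = 0.0527 to 0.0688). Under normexp it was -0.64, below the fold threshold. Cyp4b1, Cyp4f16, Cyp4f17 and Cyp4f39 were not called, and Cyp4a29, Cyp4a30b and Cyp4x1 were well above background on 0 arrays. Cyp4f37 was above background in NZO 009 only and Cyp4f40 in NZO 011 only.

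The enzymes that serve or follow omega-hydroxylation were read in 3 lists, and their few calls stand beside the 4.33% higher and 5.28% lower of all probes tested. Of the 4 electron donors of P450 enzymes, 0 were called (median -0.24). Por, the P450 reductase, was at -0.32 (limma adjusted p = 0.354), while Cyb5r3 at 0.55 and Cyb5a at -0.40 passed the p threshold but not the fold threshold (limma adjusted p = 0.0105 and 0.0262). Of 5 alcohol and aldehyde dehydrogenases that oxidise the omega-alcohol, 0 were called, with Adh4 at 0.56 and Aldh3a2 at -0.53 (limma adjusted p = 0.0337 and 0.245). Among 19 of 20 genes of peroxisomal and dicarboxylic acid oxidation that passed the filter, only Acot6, an acyl-CoA thioesterase, was called, at 1.13 with a standard error of 0.17 (limma adjusted p = 0.0032). It was 0.47 under normexp and in the deposited table, below the fold threshold. The median of that list was 0.05.

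Other PPAR alpha targets were read in 2 further lists. Of the mitochondrial targets 13 of 14 passed the filter and 0 were called (median 0.10), among them Acadvl, the very long-chain acyl-CoA dehydrogenase, at 0.29 (limma adjusted p = 0.105). Hadha at 0.43 passed the p threshold but not the fold threshold (limma adjusted p = 0.0318). Of the remaining targets 11 of 12 passed the filter (median 0.21). Mgll at 0.53 passed the p threshold only (limma adjusted p = 0.048), and 1 gene was called. This was Fgf21, a hepatokine, with levels of 0.20, 0.65, 0.84 and -1.72 in the NZO mice and -2.88, -2.08, -1.33 and -3.53 in the B6 mice. The strains overlapped, since NZO 011 was below B6 011. Its log2 fold change was 2.45 with a standard error of 0.65 (limma adjusted p = 0.0403), and the call was lost without NZO 003, NZO 007, NZO 009, B6 009, B6 010 or B6 015 (2.09 to 2.57, adjusted p = 0.0772 to 0.105). It was 1.35 under normexp and 1.59 in the deposited table, where it passed (limma adjusted p = 0.0192 and 0.0275). With the mouse number as a block, which rests on mice 009 and 011 of each strain, it was 1.67 and did not pass (limma adjusted p = 0.498). The peroxisomal list and these 2 lists of PPAR alpha targets were also counted together. Of their 43 genes tested, 2 (4.65%) were called higher and 0 lower, a share of higher calls near the 4.33% of all probes tested (5.28% were lower). NZO 003 was the highest NZO mouse in 25 of the 43 genes (58.1%, beside 35.5% of all probes tested) and B6 011 was the lowest B6 mouse in 6 (14%, beside 18.2%).

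**Figure D4:**
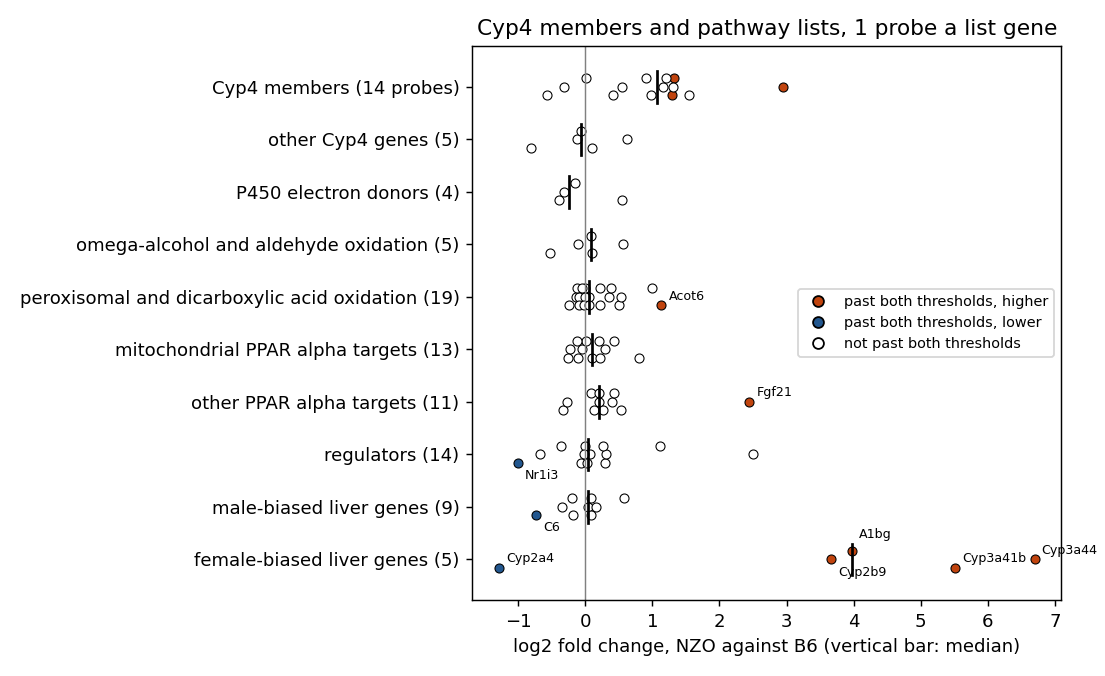
Log2 fold change of NZO against B6 (horizontal axis) for the 14 Cyp4 probes and for the genes of 9 lists, each by its brightest probe, with the number that passed the filter in brackets and a bar at the median. Orange and blue points are past both thresholds, Cyp4a14 lies at 2.95 and Fgf21 at 2.45, the peroxisomal, mitochondrial and other PPAR alpha targets have medians of 0.05 to 0.21, and the values of A1bg, Cyp2b9 and Cyp3a44 are fitted against B6 arrays at background. Of the regulators and of the mitochondrial targets, 1 gene each is not drawn.

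The genes that regulate this family were examined as a list of 14. Ppara itself was at 0.06 with a standard error of 0.16 by its brightest probe (limma adjusted p = 0.837). Its other probes gave 0.23 and 0.39 and were not called (limma adjusted p = 0.265 and 0.183). Rxra, the partner of Ppara, was at -0.07 by its brightest probe and at -0.24 by another, not called (limma adjusted p = 0.195). Nr1i3, the nuclear receptor CAR, was called lower in NZO at -1.01 with a standard error of 0.16 (limma adjusted p = 0.00337), and its other probe gave -1.04. The growth hormone response genes Socs2 and Cish were at 2.49 and 1.12 with standard errors of 0.74 and 1.21 and were not called (limma adjusted p = 0.0611 and 0.595).

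Because Cyp4a12a is a male-biased gene, other liver genes with a known sex bias were listed. Of 9 male-biased genes tested, 0 were called higher and 1 lower by their brightest probe, beside 4.33% and 5.28% of all probes tested. The gene called lower was C6, a complement component, at -0.74 with a standard error of 0.20 (limma adjusted p = 0.0405). The call of C6 was lost without any single mouse but B6 015 (-0.79 to -0.63, adjusted p = 0.0663 to 0.109). Mup20, a urinary protein, was at -0.18 by its brightest probe and at -1.85 by another, which was called. Of 11 female-biased genes, 10 were on the array and 5 passed the filter, 3 of them through the NZO arrays alone, so their count of calls is not read as a result. Cyp3a41b was higher in NZO by 5.51 on the log2 scale, and Cyp2a4 was lower at -1.29. Cyp3a44, Cyp2b9 and A1bg were at background on all B6 arrays and at least 63.5-fold, 6.39-fold and 4.24-fold higher in NZO. These bounds hold for the main setting only. Over all alternatives the log2 fold changes of Cyp3a44, Cyp2b9 and A1bg fell as low as 3.09, 0.78 and 0.72. Cyp2b9 and A1bg did not keep their calls in all of them.

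Markers of other cells were read beside these results. Of 4 red blood cell markers 2 were called higher in NZO, beside 4.33% of all probes tested. These were Hba-a1 at 1.00 and Alas2 at 0.90 (limma adjusted p = 0.0183 and 0.0023). Hba-a1 lost the call without B6 010 or B6 015 (0.93 and 0.94, adjusted p = 0.0566 and 0.0552). Over all alternatives Hba-a1 ranged from 0.79 to 1.13 and Alas2 from 0.66 to 1.06, with adjusted p up to 0.274 and 0.152. Neither kept its call in all of them. The summed linear signal of the 4 markers, in units of the 75th percentile, was led by Hba-a1. It was 318, 366, 470 and 293 in the NZO mice and 197, 165, 208 and 155 in the B6 mice. Every NZO mouse was above every B6 mouse in this sum. The part of red blood cells in the Cyp4 differences was not tested. Of 4 skeletal muscle markers 2 passed the filter on dim probes by their brightest probe, and 0 of these were called. The summed signal of all 4, led by Myh4 and Acta1, was 16.4 in NZO 007 and 5.49 in B6 010. It lay between 0.19 and 1.39 in the other 6 mice. Without NZO 007 the log2 fold change of Cyp4a14 was 3.16.

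Adipoq, Plin1 and Lep, which define adipocytes, were well above background on 0 arrays, and Car3 and Fabp4, the 2 detected markers of that list of 5, were not called. Car3 at 0.47 did not overlap between the strains and passed the p threshold only, while Fabp4 was at -0.30 (limma adjusted p = 0.0133 and 0.241). Umod, which defines kidney tubules, a tissue that also expresses Cyp4a12 genes, was above background on 0 arrays. Of the other kidney markers, Slc34a1 and Lrp2 were each above background on 3 NZO and 4 B6 arrays and were not called (-0.70 and -1.39, limma adjusted p = 0.482 and 0.113). The summed signal of the 5 kidney markers, led by Slc34a1 and Lrp2, was 0.44, 0.62, 0.21 and 0.42 in the NZO mice and 0.71, 0.71, 0.72 and 0.44 in the B6 mice, and the part of kidney tissue in the Cyp4 differences was not tested. Of 4 leukocyte markers 0 were called. Cd68, a macrophage marker, did not overlap between the strains at -0.42 and passed the p threshold only, and Ptprc was at -0.52 (limma adjusted p = 0.0445 and 0.0831), while Cd3e and Lyz2 were at 0.33 and 0.41 (limma adjusted p = 0.578 and 0.109). The part of leukocytes in the lower Cyp4f18 signal was not tested. Of 6 markers of exocrine pancreas 2 passed the filter on dim probes, and neither was called.

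The genes outside the Cyp4 family with the most similar pattern were found by the root mean square difference of log2 levels over the 8 arrays, each probe centred on its own mean, among 24451 probes above background on all arrays, with Cyp4 genes left out of the search. For Cyp4a14 they were Stap1 (0.57), Dntt (0.62) and Adgrv1 (0.64). For Cyp4a12b they were Teddm2 and Smim10l1 (both 0.13) and Rnd2 (0.14). For Cyp4a10 probe 2 they were a probe without a gene match (0.45), 4930504D19Rik (0.46) and Apc (0.48). The distances are larger for Cyp4a14 and Cyp4a10, the genes with more spread between mice of a strain, and they describe these 8 arrays only.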

How the data were processed

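The authors deposited scanner files, in which the intensity was background-subtracted by Agilent Feature Extraction (11.0.1.1 in the file headers, 9.1 in the submitters' processing notes) without scaling between arrays. They also deposited a combined table, which held the raw median intensity of 59305 of 59305 spots (tolerance 0.01) and served as an alternative. Controls and between 96 and 137 outlier spots on each array were removed. The processed intensity was taken as log2, the array's 75th percentile was subtracted, and values were averaged per probe. A probe was tested when all 4 arrays of either strain exceeded background clearly (27639 of 55681). limma 3.58.1 in R 4.3.3 compared the strains without a block, with Benjamini-Hochberg adjustment. Thresholds of p and of a log2 fold change of 0.7 follow the study, which does not say whether p was adjusted, so the adjusted p was used. Whether the mice shared litters or cages is not stated, and p-values measure the spread between these mice.

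The members and lists were chosen with earlier results of these data known. Every member probe is named. Of each list, up to 4 called genes or otherwise the brightest were named, by the probe with the highest mean over 8 arrays, and other genes or probes were named after their values were seen. Where a strain was at background, a fold is a lower bound against the higher of the probe's own signal and the lowest signal well above background on each array. Names came from the files, with list genes matched to the RefSeq table through accession (27656 probes), symbol (3401) or synonym (321), and 24303 probes had no match. The values of 3 list genes are not reported here, though list counts and medians include them. Probe sequences came from the scanner files and gene positions from RefSeq (GRCm38). The methods were tested on simulated data. Alternatives were normexp (offset 50), quantile and median scaling, the deposited table, no filter, unadjusted p, the methods' Welch-corrected test, slide, scan day or mouse number as a term, and leaving out each mouse. The number of arrays limits the precision. Tables and plots were made with pandas 2.3.3, numpy 2.4.6 and matplotlib 3.10.9 in Python 3.11.15.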

Additional observations from a re-analysis of the deposited data

Results flagged for a closer look

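Of 124 groups of 4 arrays (62 probes in 2 strains), 13 had 1 array set apart from the other 3 by Dixon's criterion at 95%, where chance gives about 1 in 20. Among the Cyp4 members these were Cyp4a10 probe 2 in NZO 003, at 4.84 against 3.09 to 3.31 in the other NZO mice, and Cyp4a12a in B6 009, at 4.96 against 4.65 to 4.69 in the other B6 mice. Among other Cyp4 genes they were Cyp4b1 in NZO 003 (1.94), Cyp4f17 in NZO 007 (2.81) and Cyp4f37 in NZO 009 (-0.83, the only array on which that probe was above background). Among enzymes and list genes they were Por in NZO 009 (3.02), Adh5 in B6 009 (-0.16) and C6 in NZO 009 (3.81). Among cell markers they were Tat in B6 011 (5.77), Cd68 in NZO 007 (1.79), the muscle gene Acta1 in NZO 007 (2.81), Ctrb1 in B6 011 (-0.23) and Cela1 in B6 015 (-2.55). All values are levels on the log2 scale. The cause was not tested for any of them.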

How the results depend on the processing

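The 3 called Cyp4 probes kept direction and call in 55 of 57 values over 19 alternatives. The exceptions were Cyp4a12a and Cyp4a12b with the mouse number as a replicate block (limma adjusted p = 0.165 and 0.177, still higher in NZO). This block was fitted as a fixed term. Its strain differences therefore rest on mice 009 and 011 of each strain, the only numbers found in both, and its fewer calls reflect fewer mice. Cyp4a14 ranged from 2.39 to 3.88. The number of Cyp4 probes called higher was 7 with unadjusted p (5.16% of all probes), 4 under normexp (2.23%) and in the deposited table (2.08%), with Cyp4a10 probe 2 in both, 6 with slide as a random block (4.39%), 9 with slide as a fixed term (1.8%), which rests on slide 1 and so on NZO 003 alone, 1 with the block (0.261%) and 3 without any single mouse (3.79% to 4.43%). The number called lower was 1, Cyp4v3, under quantile normalization (5.1%) and in the deposited table (5.14%). Over all probes, 1198 higher and 1460 lower calls (45.1% higher) became 615 and 583 under normexp and 575 and 1421 (28.8% higher) in the deposited table, whose median over all probes was -0.15. Calls were 1212 and 1517 with slide as a random block and 497 and 984 with slide fixed, and the methods' Welch-corrected test made 831 higher and 890 lower calls after Benjamini-Hochberg adjustment (3 Cyp4 probes higher) and 1291 and 1609 with p unadjusted (7 Cyp4 probes higher). With the block they were 72 and 134, and without single mice 1071 to 1239 and 1227 to 1461. The mouse numbers mark no known pairing: deviations from the strain mean correlated at -0.26 across probes for number 009 and at -0.004 for 011.

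Of 266 values of the Cyp4 probes, 239 kept their direction and stayed called or not called by both thresholds together (a single threshold could be crossed), 17 gained a call, 2 lost it and 8 changed sign. The last were all of Cyp4f13: -0.099 under normexp, -0.057 under quantile normalization, -0.28 in the deposited table, -0.0064 with scan day fixed, and -0.019 to 0.046 without single mice (below 0 without NZO 003, NZO 009, B6 009 or B6 015, at -0.0049, -0.019, -0.0048 and -0.0064). Of 513 values of 27 other gene probes, 445 kept direction and call, 52 lost and 5 gained a call, and 11 changed sign. These were 0.074 for Cyp4f17 and -0.17 for Cyp4f39 with the block, 0.36 for Cyp4b1, 0.11 for Aldh3a2, 0.13 for Adh5 and 0.14 for Acadm with slide fixed, -0.081 for Cyp4f16 and -0.17 for Adh1 in the deposited table, -0.023 for Adh1 under quantile normalization, and 0.026 for Cyp4f17 and 0.018 for Acadm without NZO 007 (-0.10 to 0.026 and -0.21 to 0.018 without single mice). The cause was not tested. Probe pairs were not refitted without single mice, since the smallest exact p is then 0.0571.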
